A study of Mus musculus with 72 samples.

Results

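The core circadian clock genes are the 10 genes Arntl, Clock, Npas2, Per1, Per2, Per3, Cry1, Cry2, Nr1d1 and Nr1d2. They were found on the array by gene symbol, older names such as Bmal1 for Arntl included, and are measured by 23 of its 45037 probe sets; the array names 18193 genes in all. A probe set is the group of short probes that reports 1 transcript on an Affymetrix array. Arntl, Npas2 and Nr1d2 have 2 probe sets each, Clock has 4, Per2 has 3, Per3 has 6, and Per1, Cry1, Cry2 and Nr1d1 have 1 each. A gene is represented below by its brightest probe set over all arrays unless another is named by its number. The study gave female SAMP1 mice, a senescence-accelerated inbred strain, a control diet, the oxidised form of coenzyme Q10 (Q10) or its reduced form (QH2). Both forms were eaten at 500 mg per kg body weight per day from the age of 4 weeks. Liver, kidney, heart and brain were taken after 6 or 14 months, at 7 or 15 months of age, from 3 mice per diet and duration, which gives 24 groups and 72 arrays. All groups share the strain and sex, a light-dark cycle of 12 hours, and cages of 3 to 6 mice whose grouping was kept, so cage and diet may coincide. There is no normal strain for comparison, and the 2 durations differ in age as well as in time on diet. The hour at which mice were killed is not given in the labels, so for these genes hour, duration and diet group cannot be told apart. The labels give the durations as ages. Whether equally numbered arrays of 2 tissues come from 1 mouse is not stated.

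The mammalian clock is a feedback loop of transcription that runs in nearly every cell. ARNTL (BMAL1) with CLOCK or its relative NPAS2 binds E-box sequences and switches on the Per and Cry genes, whose proteins return to the nucleus and repress that same pair. The nuclear receptors NR1D1 and NR1D2 (REV-ERB alpha and beta) form an interlocking loop: they are switched on through E-boxes and repress Arntl, Npas2 and Clock through ROR elements, while the activator DBP acts through D-boxes. Arntl and Npas2 RNA therefore peaks at the opposite time of day to Nr1d1 and Dbp RNA, and Cry1 peaks later than the other repressors. In liver, kidney and heart these rhythms are known to be large.

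Promoter windows from 250 bases before to 50 bases after a gene's start were taken from RefSeq (GRCm38.p6) and were found for 9 of the 10 members, all but Per2. They were searched on both strands for the E-box CACGTG, the D-box TTANNTAA and the ROR element core AGTAGGTNA. The first 2 of these equal their own reverse complement. Matches were found in 4 members, shown here with the motif in capitals, and no match overlapped another. The letters are a description of the windows and were not tested as binding sites.

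Arntl, chr7:113207494-113207522, plus strand, ROR element: tggtcggaaAGTAGGTTAgtggtgcgaca
Arntl, chr7:113207530-113207558, plus strand, ROR element: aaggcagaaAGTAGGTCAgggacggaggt
Per1, chr11:69098756-69098815, plus strand, E-box: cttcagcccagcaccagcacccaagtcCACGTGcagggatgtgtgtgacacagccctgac
Cry1, chr10:85185082-85185141, minus strand, E-box: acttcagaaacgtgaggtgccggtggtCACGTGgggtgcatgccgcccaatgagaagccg
Per3, chr4:151044804-151044882, minus strand, D-box: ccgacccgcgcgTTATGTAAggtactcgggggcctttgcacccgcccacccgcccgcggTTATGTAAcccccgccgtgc

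The ROR elements of Arntl begin at positions -8 and 29 from the second of its 2 listed starts, the E-boxes at -166 in Per1 and -60 in Cry1, and the D-boxes at -205 and -158 in Per3. Of all 32851 windows, 7.15% hold the E-box, 6.0% the D-box and 0.591% (194 windows) the ROR element core, so that of these 3 motifs the ROR core is in the fewest windows.

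Values below are linear array signals in arbitrary units after the arrays of a tissue were given a common distribution (quantile normalisation), unless the common scale of all 72 arrays is named. Signals of different probe sets cannot be set against each other. The mean signal per array as deposited lay between 84.6 and 172 (liver), 132 and 262 (kidney), 108 and 279 (heart) and 140 and 279 (brain). The ratio of 3' to 5' signal of Actb, which rises as RNA is degraded, lay between 1.59 and 7.36 (liver), 1.64 and 3.37 (kidney), 1.68 and 2.22 (heart) and 1.66 and 1.95 (brain). The markers of each labelled tissue were bright on its own arrays. On the common scale of the 72 arrays, the 3 measured adipocyte markers summed to 12.1 to 2465 (median 630) in kidney and 24.5 to 464 (median 54.4) in heart. In kidney neither of the 2 tested was called for diet at 6 months or for duration over the diets. The part of fat cells in the kidney and heart results was not tested. With 3 arrays per group, the 95% interval of a diet difference in a clock gene reached a median of 0.57 (log2) to either side for liver, 0.59 for kidney, 0.67 for heart and 0.31 for brain. In whole tissue, fewer cells of a type and less RNA per cell cannot be told apart.

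On 3 arrays at least 4 of the 10 members stood at the highest or lowest value of their tissue, against a median of 1 member per array and 3 at most on the other 69. Heart QH2 14 months array 2 had 9 of 10 at an extreme. Arntl (155), Clock (192), Npas2 (56.7) and Cry1 (104) were the highest of the 18 heart arrays there, and Per1 (67.1), Per2 (14.3), Per3 (14.1), Cry2 (75.0) and Nr1d2 (488) the lowest. The 2 other arrays of that group did not share this, with Arntl at 3.92 and 82.1 and Per2 at 62.6 and 37.0. On kidney QH2 6 months array 2, Arntl (68.8), Npas2 (58.4) and Cry1 (110) were the highest of the kidney arrays and Per3 (45.7), Nr1d1 (7.46) and Nr1d2 (764) the lowest. In both arrays Arntl, Npas2 and Cry1 were thus high together, with Per3 and Nr1d2 low. Brain control 6 months array 2 had the highest Per1 (315) and Cry2 (474) and the lowest Clock (220) and Nr1d2 (1348) of the brain arrays. Several results that use these arrays, but not all, are given with and without them. The hour of sampling of single mice is not given, and its part in these arrays was not tested.

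The tissues differed widely in the level of the activators Arntl and Npas2, and less in that of Clock. On the common scale of the 72 arrays, Arntl, the obligate partner of the activating pair, had a mean log2 signal of 6.87 ± 0.24 (SD, n = 18) in brain, 5.76 ± 1.03 in heart, 4.83 ± 1.29 in liver and 4.68 ± 0.71 in kidney. The brain arrays ran from 88.6 to 158 with a median of 112, and those of liver from 4.08 to 114 with a median of 35.5. Npas2, the CLOCK relative known for its role in the forebrain, was further apart. Its signal ran from 74.6 to 165 in brain, from 2.38 to 69.7 in heart, from 0.45 to 56.3 in kidney and from 0.24 to 14.5 in liver, so no array of another tissue reached the lowest brain array. Brain exceeded heart by 2.91 (log2, adjusted p = 3.26e-13 for heart minus brain) for Npas2. Liver minus brain was -5.77 to -2.65 over the settings, since liver signals near 0 make its size rest on the scaling and on the constant added before log2. Clock, the histone acetyltransferase partner of ARNTL, spanned a smaller range, with means of 7.58 ± 0.19 in brain, 7.25 ± 0.29 in heart, 6.82 ± 0.25 in kidney and 6.53 ± 0.33 in liver. Each neighbouring pair in that order of Clock differed by the test, but heart minus brain was -0.069 (adjusted p = 0.526) with median scaling and kidney minus heart -0.093 (adjusted p = 0.595) as deposited.

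Among the repressors each gene had its own order. Per1, a period gene that also responds to light and glucocorticoids, had means between 7.07 ± 0.42 in kidney and 7.23 ± 0.40 in heart, and none of its 6 pairs of tissues passed the test. Per2 was lowest in heart (6.16 ± 0.68) and lay between 6.84 ± 0.38 in brain and 7.27 ± 0.43 in liver elsewhere; liver and kidney, and kidney and brain, did not differ by the test. Per3, the period gene that mice can lose with little effect on the rhythm, was highest in liver (7.70 ± 0.38) and exceeded kidney there by 1.18. Kidney and brain did not differ by the test in Per3, and heart was lowest (5.98 ± 0.50). Cry1, the strongest repressor, was higher in brain (6.62 ± 0.53) and liver (6.34 ± 0.80), which did not differ by the test, than in heart (5.91 ± 0.80) and kidney (5.41 ± 0.75). Cry2, the other cryptochrome, was highest in brain (8.15 ± 0.15), above liver (7.31 ± 0.40), heart (7.02 ± 0.25) and kidney (6.01 ± 0.36), and kidney minus brain was -2.13 (adjusted p = 3.1e-30). Nr1d1 was highest in heart (7.42 ± 0.33), where it exceeded brain by 1.65 (adjusted p = 8.2e-10), and liver did not differ from kidney or brain. Nr1d2 had means of 10.62 ± 0.35 in brain, 10.32 ± 0.34 in heart and 9.91 ± 0.20 and 9.90 ± 0.25 in kidney and liver. In all, 46 of the 60 tests between tissues passed. Of all probe sets 71% passed for liver and kidney, 80.7% for liver and heart, 84.1% for liver and brain, 78% for kidney and heart, 79.7% for kidney and brain and 84.8% for heart and brain. Of the 46, 8 took the opposite sign on another scaling or with the Actb ratio in the fit; these include Nr1d2 in brain against each other tissue and are given with their values in the closing section. Another 8 lost the call in some setting without turning: as deposited Clock, Npas2, Cry1 and Nr1d2 for kidney and heart and Cry1 for liver and kidney, with median scaling Clock for heart and brain, and with the Actb ratio Arntl and Nr1d1 for liver and heart.

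**Figure D1:**
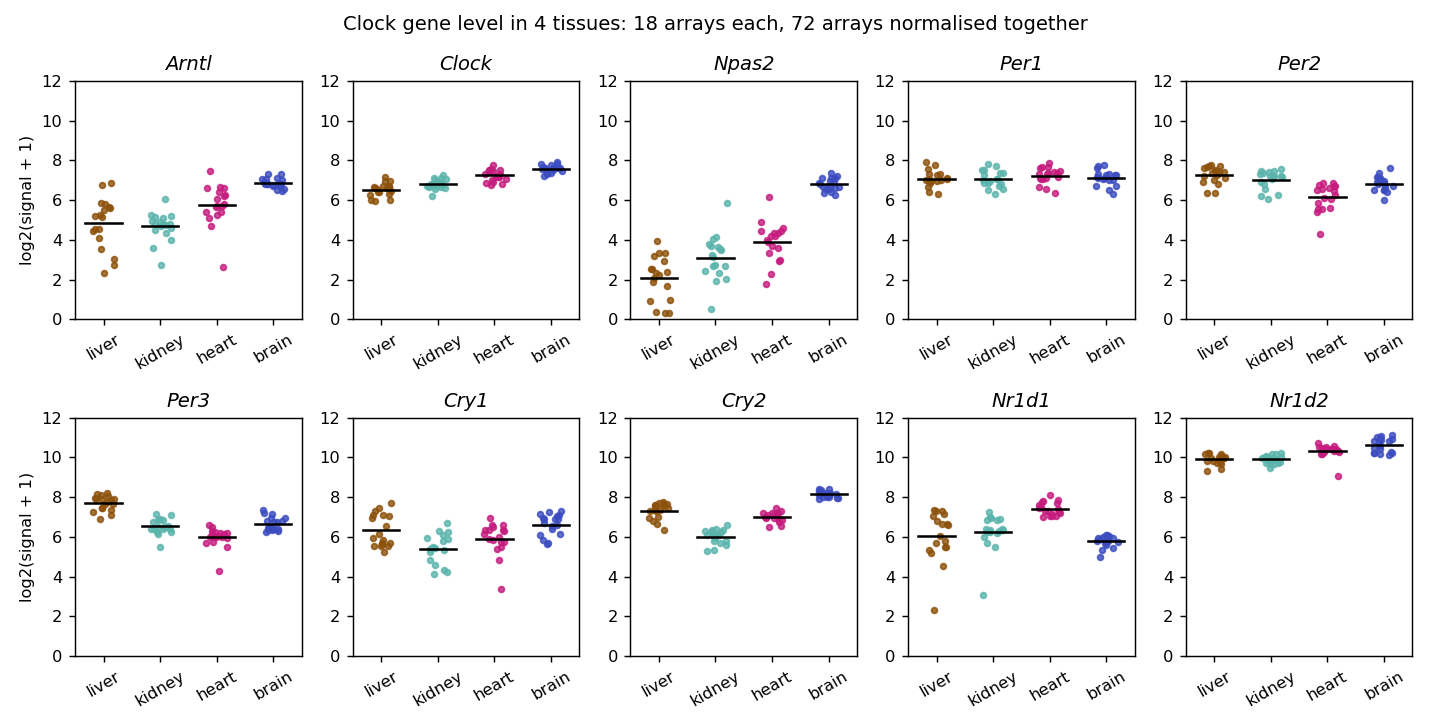
Log2 signal of the 10 clock genes on the common scale of all 72 arrays, 1 panel per gene, with 18 arrays per tissue as points and their mean as a line. Npas2 stands highest in brain with no array of another tissue at its level, while Per1 is at nearly the same mean in the 4 tissues.

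At the brightest probe sets, diet changed the signal of 1 clock gene by the test; dim probe sets of Per3 that were called are given further on. Each tissue and duration had 3 comparisons (Q10 with control, QH2 with control, and QH2 with Q10), so that each pair of them shares an array group. Npas2 was below the brightness filter in liver and kidney, which leaves 9 members there and 10 in heart and brain, and 228 tests in all. Cry1 gave all 4 that passed (2 in liver, 2 in kidney); none did in heart or brain with limma, where 4 and 9 tests were under 0.05 before adjustment. Of all probe sets 0.0666% (QH2 against Q10, 6 months) passed in heart and 0.0111% (QH2 against control, 14 months) in brain, with 0% in the other 10 comparisons of those tissues. Over the 4 tissues 38 of the 228 were under 0.05 before adjustment.

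Cry1 was brighter on QH2 at 6 months in both liver and kidney. Liver signals were 24.1, 24.2 and 20.1 on control diet, 29.8, 27.1 and 23.9 on Q10, and 68.0, 98.8 and 77.6 on QH2. All 3 QH2 arrays lie above all 6 others. Of all probe sets 7.22% had the QH2 arrays all above the Q10 arrays. The means were 22.8 ± 2.34, 26.9 ± 2.95 and 81.5 ± 15.7 (SD, n = 3). QH2 exceeded Q10 by 1.55 (log2, SE 0.33, 2.93-fold, adjusted p = 0.0264), in a comparison in which 0.988% of all probe sets were called, 0.13% as higher. Against control the difference was greater, 1.78, but did not pass (adjusted p = 0.154); no probe set passed there (0%), and 5.51% had QH2 arrays all above the control arrays. In kidney, Cry1 was 37.0, 17.8 and 27.8 on control diet, 18.8, 16.5 and 22.7 on Q10, and 80.8, 110 and 62.5 on QH2. Again the QH2 arrays lie above the other 6, as they did above control for 7.26% and above Q10 for 8% of probe sets. QH2 exceeded control by 1.60 (SE 0.30, 3.04-fold, adjusted p = 0.0355) and Q10 by 2.04 (SE 0.30, 4.13-fold, adjusted p = 0.0152). In those comparisons 0.192% and 0.3% of probe sets were called, 0.0074% (2 probe sets) and 0.0407% (11 probe sets) as higher.

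These 6-month calls are near the threshold. In kidney without QH2 array 2, the array with 6 members at an extreme, the difference from Q10 was 1.83 (adjusted p = 0.0269) and that from control 1.39 (adjusted p = 0.117). Leaving out 1 array at a time kept the kidney difference from Q10 called in 4 of 6 fits (1.83 to 2.23), that from control in 1 of 6 (1.33 to 1.83, adjusted p 0.0295 to 0.176) and the liver difference from Q10 in 1 of 6 (1.39 to 1.67, adjusted p 0.0498 to 0.115). The other processing settings kept the kidney difference from Q10 called in 10 of 10, that from control in 4 of 10 (adjusted p 0.0171 to 0.153) and the liver difference in 8 of 10 (adjusted p 0.0133 to 0.247). The sign held in each of these. The Actb ratio at 6 months was 2.86 to 3.00 in liver on control diet, 3.10 to 3.75 on Q10 and 3.18 to 4.25 on QH2, and 2.08 to 2.64 over the 9 kidney arrays. The 5 macrophage markers summed to 1475 to 2079 and the 3 B cell markers to 28.2 to 75.0 over the same kidney arrays, and none of these was called.

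At 14 months Cry1 was also higher on QH2 than on Q10 in liver. Signals were 26.9, 76.5 and 31.6 on control diet, 50.2, 25.5 and 37.1 on Q10, and 122, 72.6 and 90.1 on QH2. The QH2 arrays lie above all Q10 arrays, as for 14.8% of probe sets, but overlap with control array 2. QH2 exceeded Q10 by 1.33 (SE 0.33, 2.52-fold, adjusted p = 0.0168), where 9.6% of probe sets were called and 4.78% as higher, and control by 1.18 (adjusted p = 0.477; 0% called). RNA quality and blood cell markers moved with this comparison. The Actb ratio was 3.05, 1.59 and 1.98 on the Q10 arrays and 7.36, 3.67 and 5.01 on the QH2 arrays, against 3.49, 3.88 and 4.11 on control diet. All 5 macrophage markers were lower on QH2 than on Q10: their sum ran from 737 to 1209 on QH2, from 3324 to 10958 on Q10 and from 537 to 1231 on control diet. Of 3 B cell markers 2 were lower, with sums of 72.3 to 98.7 on QH2, 172.6 to 2664 on Q10 and 39.6 to 60.9 on control diet. With the Actb ratio in the fit the Cry1 difference was 0.22 (adjusted p = 1), and it was called in 7 of 10 settings (adjusted p 9.86e-05 to 1) and in 2 of 6 fits without 1 array. The part of RNA quality and of these cells in it was otherwise not tested.

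In brain and heart Cry1 at 6 months gave no diet call. In brain it was 111, 93.7 and 81.5 on control diet, 131, 84.9 and 113 on Q10 and 163, 144 and 149 on QH2, so that the QH2 arrays lie above the rest, as for 5.74% of probe sets against control and 5.2% against Q10. The difference from control was 0.68 (adjusted p = 0.214) and that from Q10 0.49 (adjusted p = 0.445); 0% of probe sets passed in either. In heart the values were 21.0, 50.9 and 34.7 on control diet, 47.1, 31.8 and 7.59 on Q10 and 66.4, 41.0 and 63.3 on QH2, and the groups overlap. At 14 months kidney Cry1 was 41.3, 70.9 and 43.3 on control diet, 45.9, 59.7 and 43.6 on Q10 and 55.9, 79.3 and 40.2 on QH2. These kidney groups overlap fully, and QH2 minus control was 0.16 (adjusted p = 0.976; 0% called). The other 14-month comparisons of kidney, with 0.666% (Q10 against control) and 5.96% (QH2 against Q10) of probe sets called, had no clock gene among them. Whether the effect of Q10 or of QH2 against control differs between durations was tested as an interaction for the brightest probe set of each member. None of the 76 tests passed with limma, and 13 were under 0.05 before adjustment. Of all probe sets 2.31% passed for Q10 in liver, 0.0074% for Q10 in kidney, 0.0296% for QH2 in brain and 0% elsewhere.

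**Figure D2:**
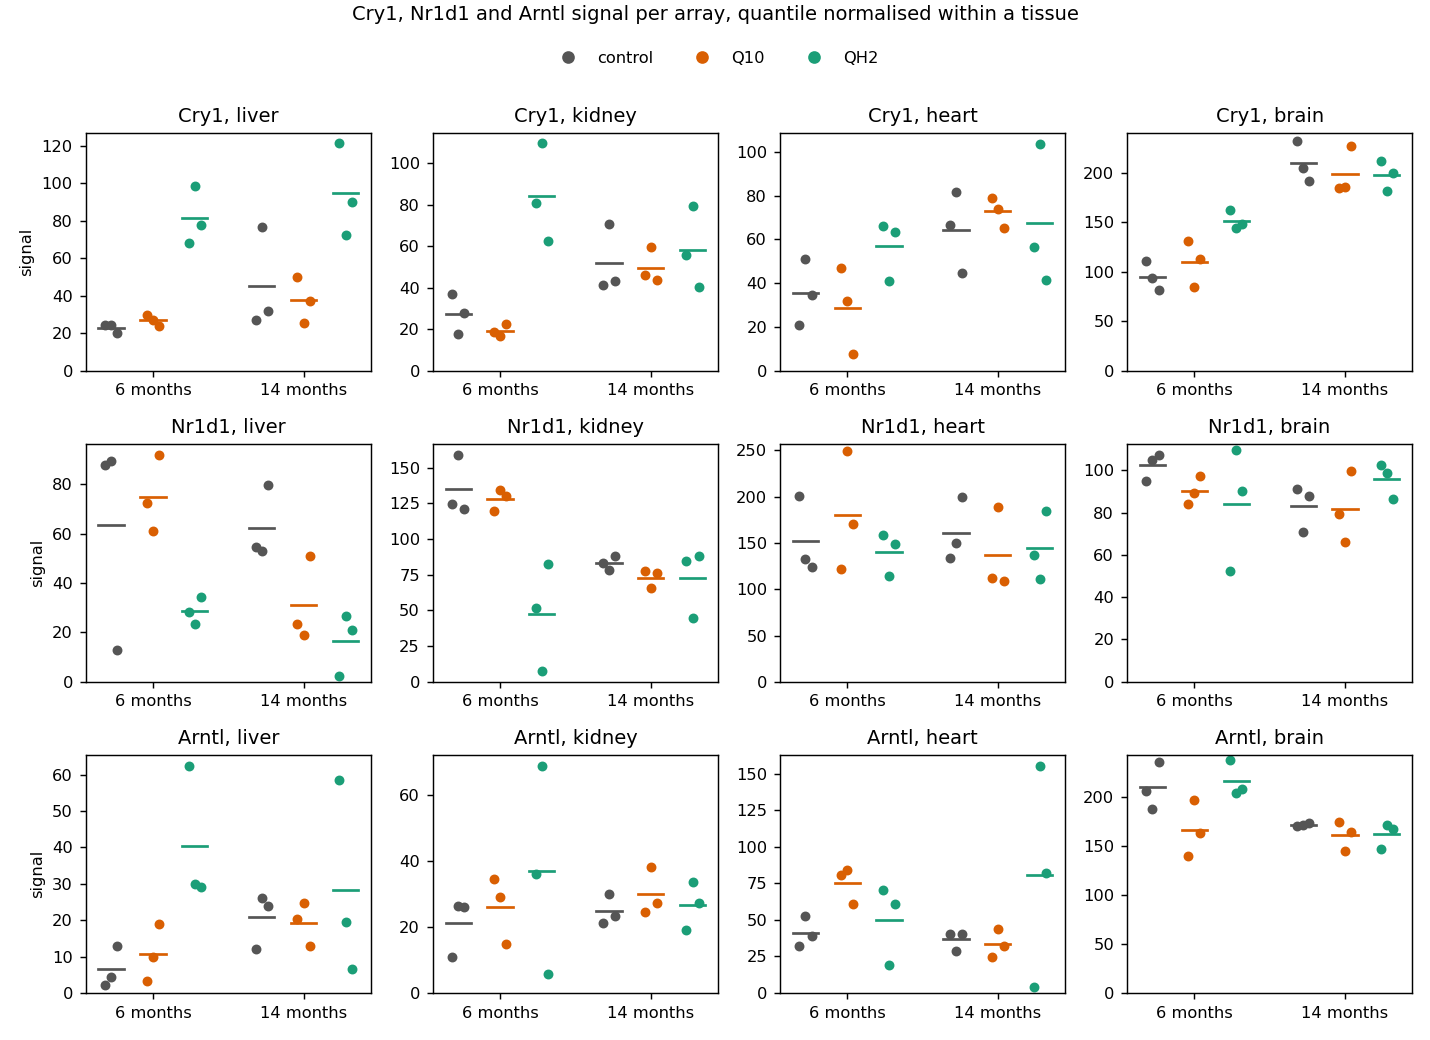
Signal per array of Cry1, Nr1d1 and Arntl in the 4 tissues by diet and duration, with the 3 arrays of a group as points and their mean as a line. The QH2 arrays at 6 months lie above the other 6 for Cry1 in liver, kidney and brain; kidney Nr1d1 lies below the other 6 arrays on the same 3 arrays.

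Nr1d1 had lower values on QH2 in several of the same groups, with differences that did not pass. Kidney Nr1d1 at 6 months was 124, 159 and 121 on control diet, 120, 135 and 130 on Q10, and 51.8, 7.46 and 82.3 on QH2. The 3 QH2 arrays lie below the other 6, as they did below control for 8.56% and below Q10 for 9.98% of probe sets, and they differ widely among themselves. QH2 minus control was -2.01 (SE 0.52, adjusted p = 0.126) and QH2 minus Q10 was -1.95 (adjusted p = 0.135). Liver Nr1d1 at 6 months was 87.9, 89.3 and 12.9 on control diet, 72.3, 61.0 and 91.8 on Q10 and 28.3, 23.5 and 34.3 on QH2, where control array 3 lies below all QH2 arrays. At 14 months it was 54.5, 53.1 and 79.6 on control diet, 23.4, 18.9 and 51 on Q10 and 2.17, 26.5 and 21.1 on QH2. QH2 minus control at 14 months was -2.33 (SE 0.68, adjusted p = 0.496), with all QH2 arrays below all control arrays, as for 9.34% of probe sets. Nr1d2 in liver at 14 months was 771, 800 and 671 on control diet, 633, 487 and 765 on Q10 and 454, 598 and 650 on QH2. Its group means at 14 months thus have the order of those of Nr1d1, without a call. At 6 months Nr1d2 was not lower on QH2 in this way: its means were 805 on control diet, 868 on Q10 and 844 on QH2 in liver, and 1132, 982 and 999.7 in kidney.

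Arntl, the target of those repressors, was dim in liver and had higher values on QH2 at 6 months, a difference that did not pass. Its signals were 2.26, 4.40 and 12.8 on control diet, 3.37, 9.89 and 19 on Q10 and 62.3, 29.9 and 29.0 on QH2. The difference from control was 2.64 (SE 0.67, adjusted p = 0.314) and that from Q10 1.98 (adjusted p = 0.216), although the QH2 arrays lie above the other 6, as for 5.51% (control) and 7.22% (Q10) of probe sets. At signals this low the size of the difference rests on the constant added before log2. In kidney the Arntl arrays on QH2 at 6 months were 35.9, 68.8 and 5.68, the highest and the lowest of that tissue in 1 group. Npas2 on the same 3 arrays was 12.4, 58.4 and 10.1, with all other kidney arrays at 16.1 or lower. Clock in liver ran from 33.5 to 81.3 at 6 months and from 32.3 to 55.4 at 14 months with overlapping diets.

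Of the period genes and Cry2, none was called for diet at its brightest probe set. Liver Per1 at 6 months was 144, 92.2 and 91.5 on control diet, 41.8, 69.9 and 75.8 on Q10 and 73.9, 68.4 and 110 on QH2; Q10 minus control was -0.81 (adjusted p = 0.249), with all Q10 arrays below control as for 5.85% of probe sets, in a comparison with 0.807% of probe sets called. Heart Per2 at 14 months was 78.8, 98.0 and 87.8 on control diet, 97.6, 92.5 and 72.9 on Q10 and 62.6, 14.3 and 37.0 on QH2. QH2 minus control was -1.41 (adjusted p = 0.433) and QH2 minus Q10 was -1.40 (adjusted p = 0.133), and the lowest of the 3 is the array with 9 members at an extreme. Liver Cry2 at 14 months was 109, 126 and 91.5 on control diet, 99.5, 42.7 and 53.3 on Q10 and 124, 69.6 and 119 on QH2. Q10 minus control was -0.81 (adjusted p = 0.0817), where 5.98% of probe sets were called, and QH2 minus Q10 was 0.72 (adjusted p = 0.100). Of the diet medians over the members tested, those of liver at 6 months were 0.23 for Q10 and 0.61 for QH2 against control, beside medians of 0.01 over all 27022 probe sets tested for both.

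Duration moved more of the clock genes than diet did, most of all in brain. Averaged over the diets, 8 of 10 members passed in brain, 2 of 9 (kidney), 1 of 9 (liver) and 1 of 10 (heart) elsewhere. The shares of all probe sets called in the same comparisons were 56% (brain), 40.4% (kidney), 20.6% (liver) and 18.8% (heart), so that the members' shares lie below the background in liver, kidney and heart. On control diet alone, 2 members passed in brain (32.6% of probe sets) and 1 in liver (7.32%), but none in kidney (9.27%) or heart (2.06%), with 15 of the 38 tests under 0.05 before adjustment.

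Cry1 was higher at 14 months in 3 tissues when averaged over the diets. In brain the 9 arrays at 6 months ran from 81.5 to 163 with a median of 113, and the 9 at 14 months from 182 to 233 with a median of 199.6. The durations do not overlap, as for 8.56% of probe sets higher at 14 months. The rise was 0.80 (SE 0.09, adjusted p = 2.97e-07) over the diets and 1.14 (SE 0.15, adjusted p = 1.57e-05) on control diet, from a mean of 95.3 ± 14.6 to 210 ± 21.0. On Q10 it was 0.87 (adjusted p = 0.000281), from 110 ± 23.3 to 199.3 ± 24.6. On QH2 alone the brain rise did not pass. In kidney the 6-month arrays ran from 16.5 to 110 (median 27.8) and the 14-month arrays from 40.2 to 79.3 (median 45.9), with a change of 0.56 (SE 0.17, adjusted p = 0.0153). In heart the ranges were 7.59 to 66.4 (median 41.0) and 41.5 to 104 (median 66.7), with a change of 0.89 (SE 0.27, adjusted p = 0.0256). In both tissues the durations overlap, and on control diet or on QH2 alone neither change passed. The kidney QH2 arrays had a lower mean at 14 than at 6 months, and the control and Q10 arrays a higher one. The heart rise was called in 14 of 18 fits that left out 1 array, and those of brain and kidney in 18 of 18. Without heart QH2 14 months array 2, which has 9 members at an extreme, it was 0.77 (adjusted p = 0.0551); it was also lost, with adjusted p from 0.0549 to 0.0559, without control 6 months array 1, QH2 6 months array 2 or control 14 months array 2. In heart 2 of 3 B cell markers were higher at 14 months (sums 14.3 to 102 at 6 months and 38.5 to 1537 at 14), and their part was not tested. Liver Cry1 changed by 0.47, which did not pass (adjusted p = 0.0812).

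Nr1d2, the REV-ERB beta gene, was higher at 14 months in brain and lower in liver. In brain it ran from 1348 to 1712 (median 1430) at 6 months and from 1849 to 2312 (median 2104) at 14 months, with no overlap. The change was 0.50 (SE 0.05, adjusted p = 2.19e-07) over the diets, and it passed on each diet, at 0.55 on control, 0.45 on Q10 and 0.49 on QH2 (28.5% of probe sets were called on Q10 and 34.7% on QH2). In liver it ran from 685 to 943 (median 847) at 6 months and from 454 to 800 (median 650) at 14 months, a change of -0.39 (SE 0.10, adjusted p = 0.0101) that did not pass as deposited (-0.32, adjusted p = 0.463). All 3 B cell markers and 1 of 5 macrophage markers were higher in liver at 14 months, and their part was not tested. The change in brain exceeded that in each other tissue in the fit of all 72 arrays: liver minus brain was -0.94 (SE 0.15, adjusted p = 2.54e-06), heart minus brain -0.76 (adjusted p = 0.000233) and kidney minus brain -0.59 (adjusted p = 0.00208). Of all probe sets 34.1%, 18.1% and 32.2% were called in those 3 comparisons. As deposited, heart minus brain was -0.33 (adjusted p = 0.429) and kidney minus brain -0.69 (adjusted p = 0.0593), neither a call. A second, dimmer probe set of Nr1d2 (1416959_at) does not share the rise in brain. There it ran lower at 14 months by the test (-0.33, adjusted p = 0.00889), with 126, 125 and 127 on control diet at 6 months and 131, 107 and 121 at 14 months. It was lower too in the other tissues, by -1.92 (liver, adjusted p = 0.00141), -1.32 (kidney, adjusted p = 0.000293) and -1.36 (heart, adjusted p = 0.000684). The 2 probe sets of Nr1d2 therefore disagree in sign in brain, and which part of the transcript each covers is not used here. Used as deposited, the brain change of 1416959_at is 0.10 (adjusted p = 0.565).

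The remaining brain changes were smaller and mostly downward. Arntl ran from 140 to 238 (median 204) at 6 months and from 145 to 174 (median 170) at 14 months, a change of -0.25 (adjusted p = 0.00648). Npas2 ran from 145 to 247 (median 207) and from 120 to 177 (median 152), a change of -0.42 (adjusted p = 0.000478). Both activators thus overlap between the durations but have lower medians at 14 months. Per3 ran from 125 to 243 (median 187) and from 121 to 166 (median 132), a change of -0.45 (adjusted p = 0.000886). Its dimmer probe sets 1460662_at and 1421086_at were lower too. Over the other settings they were at -0.72 to -0.43 (called in 8 of 8) and -0.62 to -0.36 (called in 6 of 8). Per1 changed by -0.36 (adjusted p = 0.024) and Cry2 by -0.12 (adjusted p = 0.0375). Clock rose by 0.18 (adjusted p = 0.0222). These 3 are the least stable: leaving out 1 array kept Cry2 called in 8 of 18 fits, Per1 in 13 of 18 and Clock in 16 of 18. Without brain control 6 months array 2, which has 4 members at an extreme, Clock was 0.14 (adjusted p = 0.0536), Per1 -0.30 (adjusted p = 0.058) and Cry2 -0.11 (adjusted p = 0.0697). Per2 (-0.10, adjusted p = 0.455) and Nr1d1 (-0.07, adjusted p = 0.641) did not pass. On QH2 alone Per2 fell by 0.71 (adjusted p = 0.00748) in brain, together with Arntl, Npas2, Per3 and Cry2.

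RNA quality moved with duration in brain. The Actb ratio ran from 1.75 to 1.95 at 6 months and from 1.66 to 1.79 at 14 months. With it in the fit Arntl was -0.26 (adjusted p = 0.0858), Clock 0.12 (adjusted p = 0.39) and Cry2 -0.17 (adjusted p = 0.0908), so 5 of the 8 calls were left. The small downward calls in brain also depend on the scaling. As deposited, the median probe set of brain was 0.42 higher at 14 months, against 0.01 after quantile normalisation and 0.20 with median scaling. On the deposited values Arntl became 0.22 (adjusted p = 0.151), Npas2 0.04 (adjusted p = 0.819), Per1 0.12 (adjusted p = 0.505), Per3 0.0064 (adjusted p = 0.97) and Cry2 0.40 (adjusted p = 0.00606). With median scaling Cry2 was 0.18 (adjusted p = 0.00788). All of these values lie below the shift of the median probe set under the same scaling. Cry1 and Nr1d2 rose in brain under each of the 9 alternatives that could be computed, by 0.72 to 1.24 and by 0.42 to 1.00. As deposited, the shift of the median was 0.80 (heart), 0.40 (kidney) and 0.20 (liver). The share of higher among called probe sets then went from 50.6% to 88.8% (brain), 50.1% to 99.8% (heart), 48% to 96.8% (kidney) and 53.8% to 93.5% (liver). Median scaling gave 74.9%, 92.1%, 26.6% and 50.3% in the same order. Markers of other cells moved with duration too: in brain 3 of 5 macrophage markers were higher and 1 lower (sums 2097 to 2568 at 6 months and 2112 to 2674 at 14), and of the 5 brain markers 3 were higher and 1 lower. In kidney 3 of 5 macrophage and 3 of 3 B cell markers were higher. Their part in the clock genes' changes was not tested.

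**Figure D3:**
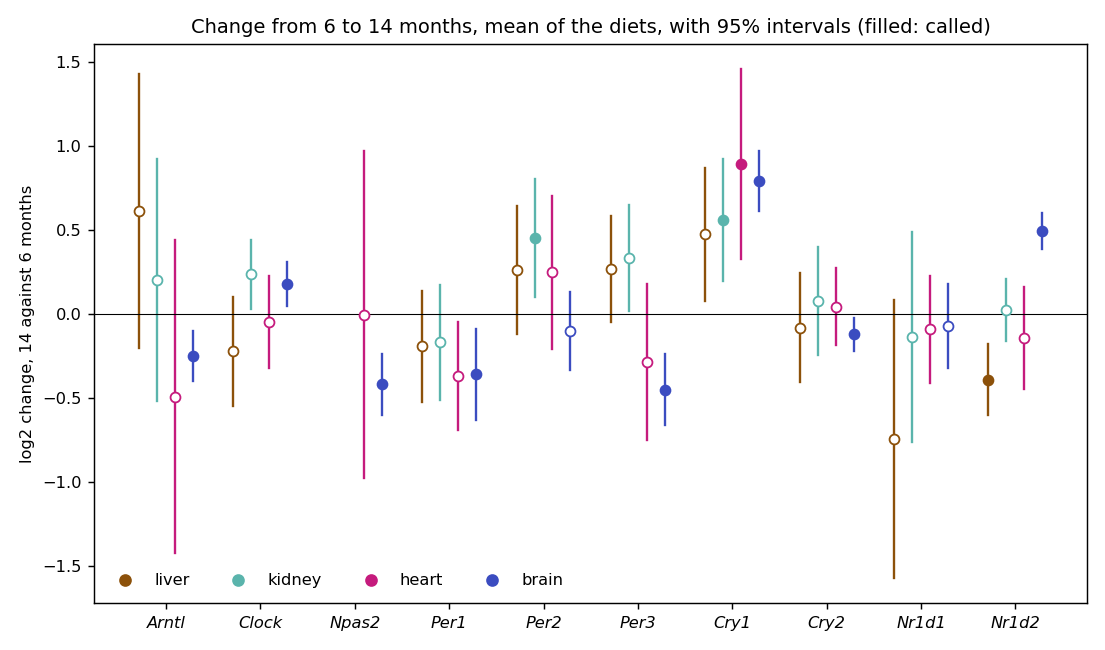
Change of each clock gene from 6 to 14 months averaged over the 3 diets, on the log2 scale with 95% intervals, in the 4 tissues; filled points passed at an adjusted p under 0.05. Cry1 is above 0 in all tissues (filled in kidney, heart and brain), and Nr1d2 is above 0 in brain and below it in liver. The small negative points of brain that are filled move to 0 or above on the deposited values, as given in the text.

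In kidney, Per2 also rose with duration, by 0.45 (SE 0.17, adjusted p = 0.0385), from 157, 155 and 77.9 on control diet, 77.7, 69.2 and 142 on Q10 and 156, 97.2 and 183 on QH2 to 199, 185 and 154, 187, 127 and 119, and 171, 151 and 169. The ranges overlap, the call held in 9 of 18 fits without 1 array, and with median scaling the change was 0.29 (adjusted p = 0.17).

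Per3 in liver rose between the durations on control diet. Its brightest probe set was 94.4, 84.8 and 75.5 at 6 months and 185, 166 and 161 at 14 months, with no overlap as for 15.4% of probe sets, a change of 1.00 (SE 0.26, adjusted p = 0.0234) that held in 1 of 6 fits without 1 array (adjusted p 0.0432 to 0.0892) and in 7 of 10 settings (adjusted p 0.0016 to 0.103). The change of Per3 averaged over the diets exceeded that in brain by 0.73 in liver (SE 0.24, adjusted p = 0.0156) and by 0.82 in kidney (adjusted p = 0.00691). These 2 did not pass as deposited (adjusted p = 0.27 and 0.0768) or with median scaling (adjusted p = 0.143 and 0.171). Including those of Nr1d2, 5 of 60 tests of this kind passed among the clock genes. None was among the 3 pairs without brain, where 4.07% (liver and kidney), 14.8% (liver and heart) and 12% (kidney and heart) of probe sets passed.

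The dimmer probe sets of Per3 moved much further in liver. Probe set 1458176_at was 3.34, 0.64 and 6.44 on control diet at 6 months, 30.3, 38.3 and 54.1 on Q10 and 2.97, 22.1 and 13.8 on QH2; at 14 months it was 99.4, 92.1 and 119, then 73.1, 28.0 and 47.9, then 24.8, 42.6 and 42.0. Probe set 1441445_at was 20.3, 14.5 and 20.4, then 70.9, 54.2 and 60.5, then 15.3, 33.9 and 24.8 at 6 months, and 122, 109 and 132, then 98.9, 26.2 and 53.4, then 26.4, 57.2 and 54.8 at 14 months, in the same order of diets. In both, the control arrays have the lowest mean at 6 months and the highest at 14 months, and the Q10 arrays at 6 months lie above the control arrays, as for 7.75% of probe sets. The rise on control diet was 4.79 (SE 0.56, adjusted p = 4.6e-05) for the first and 2.66 (SE 0.38, adjusted p = 0.000255) for the second. Because 6-month signals near 1 enter the first, its size depends on the constant added before log2: it was 2.62 with 16 in place of 1. Q10 exceeded control at 6 months by 3.44 (SE 0.56, adjusted p = 0.00675) and by 1.70 (adjusted p = 0.0413). The second of these diet calls was lost in each of 6 fits without 1 array (adjusted p 0.0526 to 0.16), whereas the first held in 6 of 6.

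The change with duration on Q10 differed from that on control for these 2 probe sets, by -4.58 (adjusted p = 0.0055) and -2.90 (adjusted p = 0.00864), in a comparison where 2.31% of probe sets were called. Both held in 12 of 12 fits without 1 array, but with the Actb ratio in the fit the adjusted p was 0.275 and 0.34, at differences of -4.01 and -2.48. Macrophage and B cell markers moved with this comparison: 5 of 5 and 2 of 3 were called higher in it. Macrophage sums on Q10 ran from 1201 to 2259 at 6 months and from 3324 to 10958 at 14 months, and their part was not tested. Probe set 1442243_at rose on control diet by 1.61 (adjusted p = 0.0159), in 2 of 6 fits without 1 array and not with the Actb ratio in the fit (adjusted p = 0.0661), and 1421086_at and 1460662_at were not called in liver. A dim probe set of Per2 (1457350_at) ran with them, at 20.5, 6.97 and 10.9 on control diet at 6 months and 62.4, 66.2 and 34.9 at 14 months, a rise of 2.08 (adjusted p = 0.0106) that held in 3 of 6 fits without 1 array, while on Q10 it went from 23.4, 42.8 and 17.8 to 17.3, 13.4 and 22.4. Its difference of changes, Q10 minus control, was -2.64 (adjusted p = 0.0457) and was called in 3 of 12 fits without 1 array and in 3 of 9 settings (adjusted p 0.0038 to 0.541). The brightest Per2 probe set in liver gave no duration call. Where in these genes the dim probe sets lie is not used here, so their signal cannot be assigned to the spliced transcript. Macrophage marker sums in liver on control diet were 1178 to 1683 at 6 months and 537 to 1231 at 14 months, and the Actb ratio was 2.86 to 3.00 and 3.49 to 4.11.

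In kidney the same dim probe sets rose over the diets, 1441445_at by 1.03 (adjusted p = 0.000418), 1458176_at by 1.56 (adjusted p = 0.00129) and Per2 1457350_at by 0.89 (adjusted p = 0.00216). In brain they were lower at 14 months, by -0.66, -1.06 and -0.78, with adjusted p-values of 0.000199, 4.5e-05 and 0.000293, and they kept that sign as deposited, where 1441445_at did not pass (-0.36, adjusted p = 0.0554). In heart 1441445_at was lower (-0.85, adjusted p = 0.0164), but at -0.28 (adjusted p = 0.359) it was not called as deposited. The direction with duration thus differs among the tissues for the same probe sets; that difference was tested only for the brightest ones, given above. Clock too has probe sets that disagree in brain. There 1418660_at was lower at 14 months (-0.33, adjusted p = 3.2e-05, but 0.15 as deposited). Probe set 1435775_at was higher (0.36, adjusted p = 0.00902), as was the brightest. The dim Clock probe set 1439314_at rose over the diets in liver and kidney, where the brightest gave no call over the diets. Fits without 1 array gave 1.17 to 1.55 in liver and 0.899 to 1.06 in kidney, called in 18 of 18 each. Over the other settings the rises were 0.46 to 1.58 and 0.51 to 1.5, called in 8 of 8 each. The dim second probe sets of Arntl (1457740_at, -0.72, adjusted p = 0.000643) and Npas2 (1421036_at, -0.77, adjusted p = 4.6e-05) were lower in brain as their brightest ones were, and stayed below 0 as deposited.

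**Figure D4:**
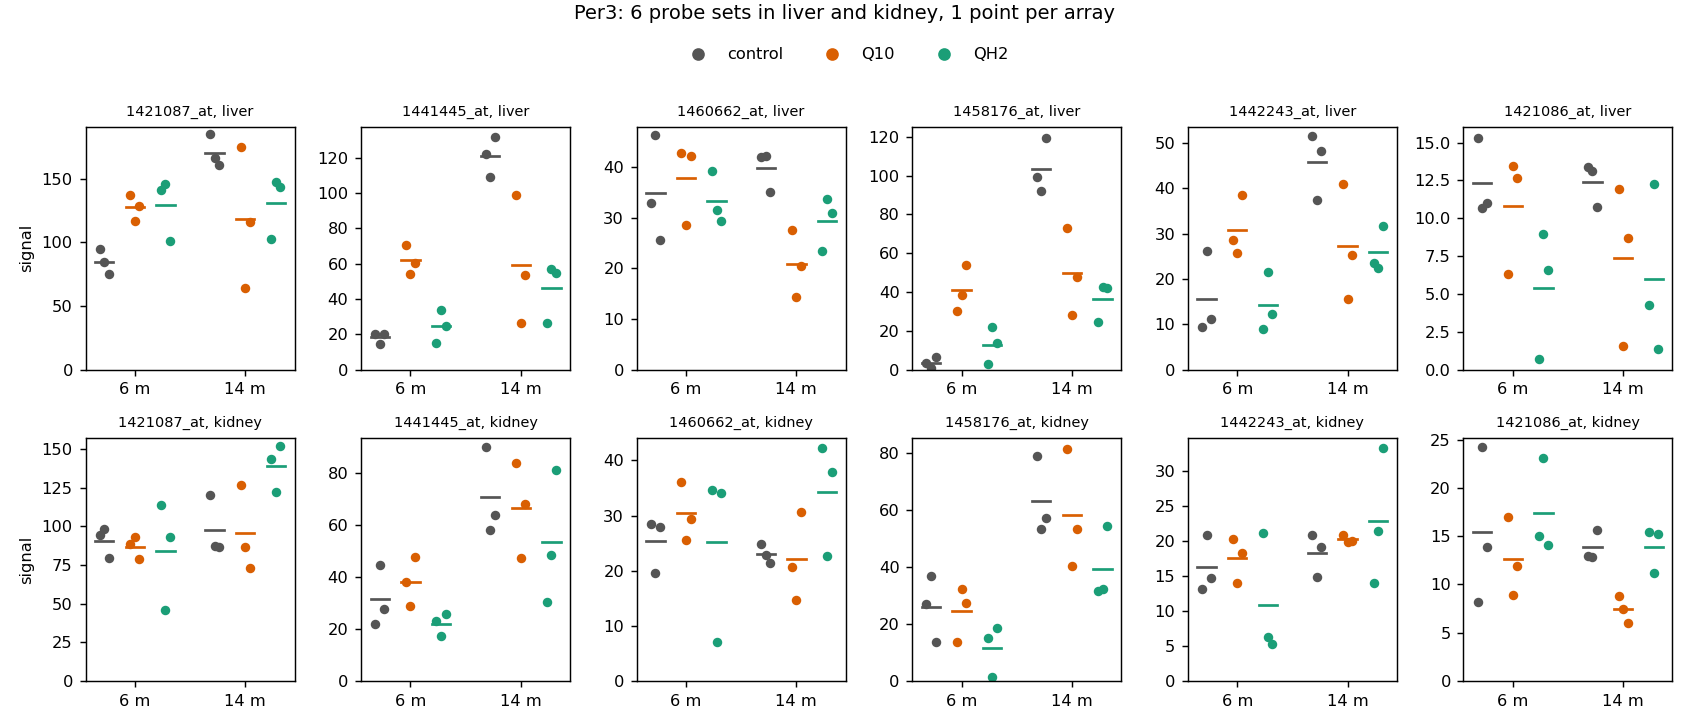
Signal per array of the 6 Per3 probe sets in liver and kidney (linear axis from 0, scaled per panel), by diet and duration, with the 3 arrays of a group as points and their mean as a line. In liver the control arrays of 1458176_at and 1441445_at go from the lowest group at 6 months to the highest at 14 months, a step that the brightest probe set, 1421087_at, shows at a smaller size.

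Genes known to peak at opposite times were set against each other array by array within a tissue and duration, over 9 arrays each, with 5 opposed pairs and 5 pairs that run together (pairs with Npas2 in heart and brain only), which makes 72 correlations. Pearson's r was negative for 24 of 36 opposed values (median -0.39) and positive for 33 of 36 values of pairs that run together (median 0.39). The opposed values were negative in 8 of 8 for kidney (median -0.56), 7 of 10 for heart (-0.48), 5 of 8 for liver (-0.35) and 4 of 10 for brain (0.14). None of the 72 passed Benjamini-Hochberg adjustment by exact permutation of Pearson's r, with 12 under 0.05 before it, and 2 passed by Spearman's rho. Those were Per2 with Per3 in liver at 14 months (r = 0.96, adjusted p = 0.052; rho = 0.92, adjusted p = 0.0472, exact permutation, n = 9) and Arntl with Per3 in heart at 14 months (r = -0.85, adjusted p = 0.152; rho = -0.93, adjusted p = 0.0472, exact permutation, n = 9). Without the 2 arrays farthest from the median of the first gene, r was 0.68 and -0.84. Without the 3 arrays named above, 20 of 36 opposed values were negative (median -0.20) and 31 of 36 values of pairs that run together positive (median 0.36). The opposed values were then negative in 6 of 8 for kidney and 5 of 10 for heart. Most opposed pairs share Arntl on the same arrays, so the values counted are not independent.

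Dbp, the D-box activator, ran most clearly against Arntl and with Nr1d1 over all arrays, the only 2 members that other genes were ranked against. After each tissue's mean was subtracted, and among 10315 genes bright enough in all tissues, Dbp had the lowest r with Arntl of any gene (-0.54 over 72 arrays; liver -0.71, kidney -0.51, heart -0.48 and brain -0.32) and the highest with Nr1d1 (0.57; 0.82, 0.82 and 0.24 in liver, kidney and heart and 0.61 in brain). With the mean of each group subtracted, so that neither diet nor duration enters, these were -0.64 and 0.51. Without the 3 arrays that stand apart r with Arntl was -0.50 and with Nr1d1 0.65, but in heart alone they were -0.26 and -0.08, so the heart values rest on 1 array. In kidney r with Arntl was -0.30 without its 1 array, against -0.51 with it. Ciart, a clock repressor, was next with Nr1d1 (0.50). Cry1 had the second lowest r of all genes with Nr1d1 (-0.52; liver -0.53, kidney -0.79, heart -0.42 and brain -0.30), and -0.26 with group means subtracted. Nr1d1 was the 25th lowest with Arntl (-0.39). The other genes nearest to Arntl were B9d1 (0.52), Gtf2ird1 (0.50), Tgoln1 (0.50), Sfrp1 (0.47) and Map3k14 (0.46), and farthest Sipa1l2 (-0.46), Ino80c (-0.45), Nup155 (-0.44) and Gpatch2 (-0.44). With Nr1d1 they were Copa, Atf6 and Atp1b1 (0.49, 0.49 and 0.47) and Tab2, Rnaseh2a, Lgalsl, Patz1 and Ypel2 (between -0.53 and -0.47). The arrays share their normalisation and, within a group, cage and hour may be shared, so these values describe the 72 arrays only. The deviation of Dbp from its tissue mean was -3.35 (log2) on heart QH2 14 months array 2 and -1.44 on kidney QH2 6 months array 2, the arrays with the highest Arntl, and -1.79 on liver QH2 14 months array 1, where Arntl was 58.6 and Nr1d1 2.17.

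**Figure D5:**
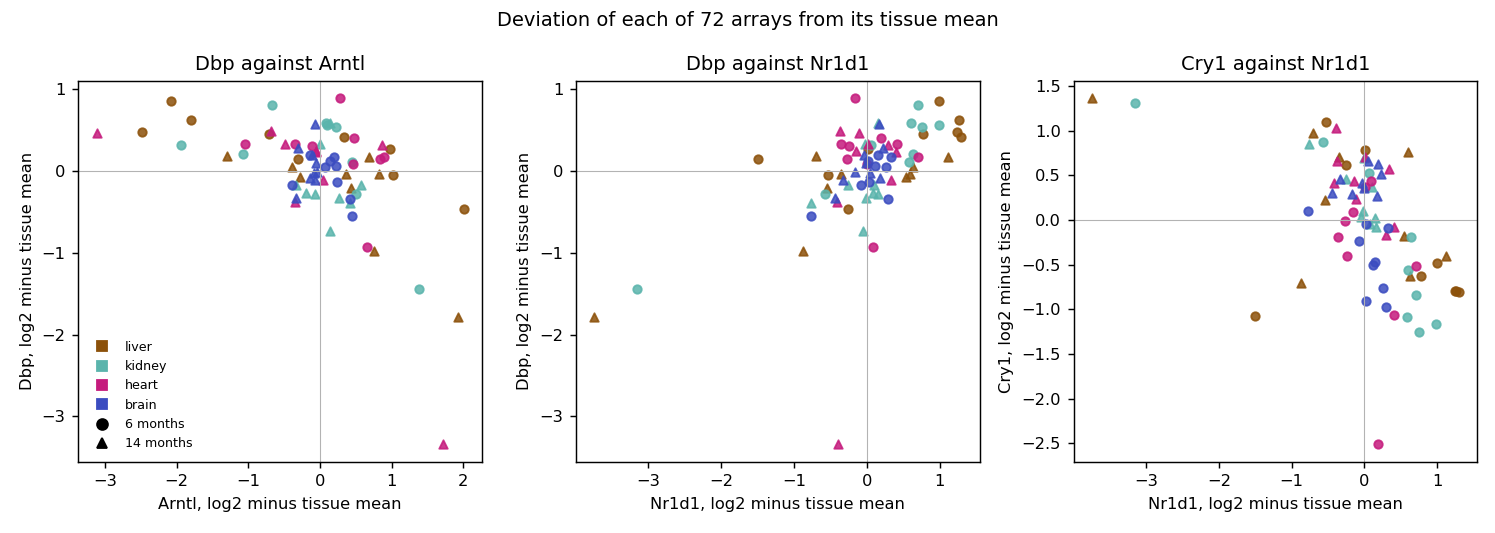
Deviation of each of the 72 arrays from its tissue's mean log2 signal, for Dbp against Arntl, Dbp against Nr1d1 and Cry1 against Nr1d1; colours mark tissues, circles 6 months and triangles 14 months. Arrays with high Arntl have low Dbp, and arrays with high Nr1d1 have high Dbp and low Cry1, with r of -0.54, 0.57 and -0.52.

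Other genes of the pathway changed with duration most often in brain and seldom with diet. The shares of all probe sets called with duration, given above, are 20.6% (liver), 40.4% (kidney), 18.8% (heart) and 56% (brain). Brain thus had the largest share over all probe sets too, so its place is not particular to these lists. Of 7 output factors, which carry the rhythm from the clock to other genes, diet called Hlf in liver (Q10 minus control at 14 months, -0.76, adjusted p = 0.046) and no other. In that comparison 5.98% of probe sets were called, and 5 of 5 macrophage and 3 of 3 B cell markers were higher, whose part was not tested. With duration, averaged over diets, 2 output factors were lower in liver, Dbp (-0.71, adjusted p = 0.0426) and Bhlhe40 (-0.38, adjusted p = 0.00532), 2 were higher in kidney (Hlf 0.50 and Nfil3 1.08), none passed in heart, and in brain Nfil3 was higher (0.50) and Tef lower (-0.23). Of the ROR receptors, activators at the sites where the REV-ERBs repress, Rora was higher in brain (0.73, adjusted p = 2e-06) and Rorb lower (-0.28). Of 8 measured genes for the turnover of clock proteins, 3 were higher in liver, among them the kinase genes Gsk3b (0.49) and Csnk2a1 (0.63), and none lower; of the 7 tested in brain 2 were higher and 3 lower. Of the clock-controlled genes tested, those higher numbered 2 of 9 (liver), 4 of 9 (kidney), 1 of 8 (heart) and 5 of 8 (brain), with 1 lower in brain. Among 6 glucocorticoid-induced genes, a list that contains Per1, Fkbp5 and Zbtb16 were higher at 14 months in liver (0.67 and 1.17) and heart (0.58 and 0.84). In kidney 2 of the 6 were higher and none lower. On control diet alone, 1 of the 6 was lower in liver and none higher. Of 7 measured heat and cold genes, none passed in liver or heart, 1 was lower in kidney (Cirbp, -0.56), and 3 were higher and 2 lower in brain. Diet called Usp2 (1.15, adjusted p = 0.0145), Tsc22d3 (0.95, adjusted p = 0.00884) and Cirbp (1.02, adjusted p = 0.0351) higher and Hsp90aa1 lower (-1.01, adjusted p = 0.00541) on QH2 than on Q10 in liver at 14 months, the comparison in which the Actb ratio and macrophage markers differed. Other diet comparisons had calls in these lists as well. QH2 against Q10 gave 1 clock-controlled gene higher and 1 heat and cold gene lower in kidney at 14 months (5.96% of probe sets called). At 6 months it gave 1 heat and cold gene higher in liver (0.988%) and 1 glucocorticoid-induced gene higher in heart (0.0666%). For Q10 against control in liver at 14 months (5.98%), the clock-controlled and the glucocorticoid-induced list each had 1 gene lower. The list medians with duration in brain were 0.11 for output factors and 0.36 for clock-controlled genes, beside 0.01 over all probe sets tested.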

How the data were processed

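Total RNA of 72 tissue samples was hybridised to Affymetrix mouse arrays, 3 per tissue, diet and duration; groups and numbers come from the labels. The values are intensities, 1 linear signal per probe set, deposited by the authors and made with GCOS per the submitters' processing notes (its version: not given in the sources used here). Control probe sets (64 of 45101) were left out. The 18 arrays of a tissue were quantile normalised (all 72 for tissue comparisons), 1 was added and log2 taken. Probe sets above the 40th percentile of mean log2 signal were tested (27022 per tissue). limma 3.58.1 in R 4.3.3 fitted 1 mean per group with an intensity trend; adjusted p-values in the text are limma's, by Benjamini-Hochberg over all probe sets of a comparison, called under 0.05, with 12 comparisons per tissue. A log2 change understates dim probe sets. Exact permutation of 3 against 3 arrays cannot go below p = 0.1.

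Correlations used exact permutations in Python 3.11.15. Symbols came from the platform annotation, updated through Entrez numbers for 34741 probe sets; 34945 had 1 symbol, 932 several and 9160 none. All 10 members are named; of the pathway lists up to 4 called genes with the smallest p per comparison could be named. Scripts were tested on simulated data. Members and lists were chosen with earlier results of these data known. Alternatives were deposited values, median scaling, another constant, no filter, a replicate block, the Actb ratio, no trend, array weights, only the groups compared, another probe set and leaving out each array.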

Additional observations from a re-analysis of the deposited data

Results flagged for a closer look

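Changes from 6 to 14 months, averaged over the diets, differed between tissues for 2 clock genes by a test of the difference itself. For Nr1d2 the change was below that of brain in liver by -0.943 (log2), in heart by -0.758 and in kidney by -0.593; on the deposited values those of heart and kidney did not pass (adjusted p = 0.429 and 0.0593), and the dimmer probe set of Nr1d2 does not show the rise in brain. For Per3 it was above that of brain in liver by 0.726 and in kidney by 0.816, 2 differences that did not pass on the deposited values or with median scaling. In liver the change with duration on Q10 differed from that on control diet for 3 dim probe sets, by -4.58 for Per3 1458176_at, -2.90 for Per3 1441445_at and -2.64 for Per2 1457350_at, while the brightest probe sets of both genes gave no such call. None of the 3 passed with the Actb ratio in the fit (adjusted p = 0.275, 0.34 and 0.541), and the last held in 3 of 12 fits without 1 array. In the same comparison 5 of 5 macrophage and 2 of 3 B cell markers were called higher, and their part was not tested.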

How the results depend on the processing

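Values as deposited changed most. The numbers of clock genes called for diet became 0 in liver (2 in the text), 1 in kidney (2) and 1 in heart (0); with duration on control diet they became 0 in liver (1), 1 in kidney (0) and 5 in heart (0); over the diets liver had 0 (1), kidney 6 (2), heart 8 (1) and brain 5 (8); and 7 phase pairs passed (0). With duration in brain Arntl turned to 0.22, Npas2 to 0.037, Per1 to 0.12, Per3 to 0.0064, Cry2 to 0.40, the Nr1d2 probe set 1416959_at to 0.10 and the Clock probe set 1418660_at to 0.15 (0.071 on control diet, and 0.37 in heart). Between tissues, liver minus heart turned to -0.13 for Cry1 and -0.26 for Cry2, liver minus brain to -1.03 for Per2 and -0.38 for Per3, and kidney minus brain to -0.17 for Nr1d1. With median scaling heart had 1 call on control diet and 2 over the diets, brain 4 over the diets and Cry2 there 0.18; Nr1d2 turned to 0.18 for liver, 0.0060 for kidney and 0.53 for heart, each minus brain. With the Actb ratio in the fit liver had 1 diet call and 0 for duration on control diet, heart 2 and brain 5 over the diets, and liver minus heart turned to -0.060 for Cry1 and -0.22 for Cry2. Without the intensity trend there was 1 diet call in liver and 1 in kidney, 0 in liver on control diet, and 1 in kidney and 0 in heart over the diets. With array weights liver had 9 diet calls, 2 on control diet, 3 over the diets and 2 for duration by diet, kidney 1 and heart 2 over the diets, heart 1 for diet and brain 4 on control diet. With only the groups compared, liver and kidney had 1 diet call each and kidney 2 on control diet. With 16 added kidney had 1 diet call and 2 phase pairs passed, and without the filter kidney had 1 diet call. Pooling the 18 arrays of a tissue gave 12 of 36 phase pairs by permutation, among them brain Arntl with Per3, an opposed pair, at a positive r of 0.61; with group means removed none of 36 passed (lowest adjusted p = 0.28, with 4 under 0.05 before adjustment). The cause of these changes was not tested.

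Replicate numbers did not pair the samples: deviations of same-numbered arrays within a tissue had median correlations of -0.0081 to 0.0077. The replicate block left 1 of 2 kidney diet calls, Cry1 for QH2 minus Q10, and that for QH2 minus control was lost (adjusted p = 0.0501). Across tissues the consensus correlation of same-numbered arrays was 0.0203.

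Leaving out 1 array gave 1 to 5 diet calls in liver (5 without Q10 14 months array 1), 1 to 4 in kidney (4 without QH2 6 months array 3), 0 to 3 in heart (3 without QH2 14 months array 1) and 0 to 0 in brain. For duration on control diet it gave 0 to 1 in liver (0 without control 6 months array 3 or any control array of 14 months), 0 to 1 in kidney (1 without control 6 months array 1), 0 to 0 in heart and 2 to 3 in brain. Over the diets it gave 1 to 4 in liver (4 without Q10 14 months array 2), 1 to 3 in kidney, 0 to 2 in heart (0 without control 6 months array 1, QH2 6 months array 2, control 14 months array 2 or QH2 14 months array 2) and 5 to 8 in brain (5 without control 6 months array 2, the one with 4 members at an extreme). Duration by diet gave 0 to 2 in liver (2 without Q10 14 months array 1) and 0 to 0 in the other tissues. Without the arrays of 1 number there were 43 to 47 calls between tissues (46 in the text) and 2 to 7 differences of duration between tissues (5 in the text, 2 without number 3). Of the single results over all other settings, 760 of 862 comparisons kept direction and call, 82 lost the call and 20 changed sign. The brightest probe set within each tissue was not run for comparisons between tissues, where it would set different probe sets against each other. With 3 arrays per group, precision is limited by their number; Npas2 in liver and kidney lay below the filter. Leaving out the arrays that stand apart was chosen after seeing the data.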
